A study of Mus musculus with 93 samples.

Results

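Zscan4b, Zscan4c, Zscan4d, Zscan4e, Zscan4f, Dub1 and Tdpoz4 are genes that the mouse embryo transcribes around the 2-cell stage. They were taken by name from the count tables of 12 RNA-seq libraries, which list 33924 genes each, and all 7 were found. The libraries, part of a series of 93 samples, were made from the mouse embryonic stem cell line R1, cultured with serum and leukaemia inhibitory factor. Set 1 holds 3 wild type libraries and 3 from cells carrying the Ring1b I53A point mutation. Set 2 holds 3 wild type libraries and 3 from cells labelled H1b/c/d/e-QKO, a quadruple knockout of linker histone genes. No treatment or time point is given for these groups, and the labels do not say whether a mutant group is 1 clone. They also do not say that replicates are separate cultures, so the p-values below measure the spread between libraries, which may be technical.

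In a culture of mouse embryonic stem cells a small and changing minority of cells passes through a state that resembles the 2-cell embryo, in which the Zscan4 genes are transcribed together with gene families that are silent in the other cells. Zscan4 proteins carry a SCAN domain and zinc fingers and are known for their part in telomere maintenance. Dub1 belongs to a family of deubiquitinating enzymes, and Tdpoz4 to a family of proteins with TRAF and POZ domains. The transcription factor Dux is known to switch the state on, with Dppa2 and Dppa4 acting upstream of it. The Polycomb complex PRC1.6, with the subunits Pcgf6, L3mbtl2, Mga, Max and E2f6, and the chromatin assembly factor subunits Chaf1a and Chaf1b are among its known repressors. Ring1b, encoded by Rnf2, is the catalytic subunit of PRC1 complexes and places ubiquitin on histone H2A, and the I53A change is known to disrupt that activity. Linker histones of the H1 family bind between nucleosomes and compact chromatin.

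On the mm9 build used by the count tables, the 5 Zscan4 genes lie within 1 stretch of chromosome 7. Zscan4b spans 11486098 to 11490399 on the minus strand and Zscan4c 11591071 to 11595896 on the plus strand. Zscan4d spans 11746992 to 11751497 and Zscan4e 11891727 to 11896031, both on the minus strand, and Zscan4f spans 11983264 to 11988090 on the plus strand. Dub1 lies farther along the same chromosome, from 112005523 to 112011181 on the plus strand, and Tdpoz4 is a gene with 1 exon on the plus strand of chromosome 3, from 93600320 to 93601432. No exon of the 7 genes overlaps an exon of another gene in the annotation. The Zscan4 copies are near-identical, so reads may have been dropped or assigned to the wrong copy, and their summed count per library is given beside the single copies.

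RefSeq's promoter table, on the build GRCm38.p6, held 6 of the 7 genes, with Dub1 listed under its current symbol Usp17la. The 250 bases before each annotated start are printed 5′ to 3′, because these are the stretches next to which the changes below were counted. Capitals mark each CG, the dinucleotide that is methylated in mammals and dense in the promoters that Polycomb complexes usually occupy. The coordinates are chr7:10905051-10905300 (minus strand) for Zscan4b, chr7:11005495-11005744 (plus) for Zscan4c, chr7:11166149-11166398 (minus) for Zscan4d, chr7:11397665-11397914 (plus) for Zscan4f, chr7:104856766-104857015 (plus) for Dub1 and chr3:93796148-93796397 (plus) for Tdpoz4.
Zscan4b: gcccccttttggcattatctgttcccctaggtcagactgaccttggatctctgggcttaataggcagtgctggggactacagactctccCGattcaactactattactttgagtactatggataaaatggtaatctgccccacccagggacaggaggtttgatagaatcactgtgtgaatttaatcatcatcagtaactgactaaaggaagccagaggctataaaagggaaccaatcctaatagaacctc
Zscan4c: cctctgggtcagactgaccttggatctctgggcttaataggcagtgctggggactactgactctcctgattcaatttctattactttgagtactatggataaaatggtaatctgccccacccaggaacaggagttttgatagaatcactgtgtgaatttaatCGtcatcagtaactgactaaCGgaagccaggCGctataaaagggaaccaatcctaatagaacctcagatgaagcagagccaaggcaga
Zscan4d: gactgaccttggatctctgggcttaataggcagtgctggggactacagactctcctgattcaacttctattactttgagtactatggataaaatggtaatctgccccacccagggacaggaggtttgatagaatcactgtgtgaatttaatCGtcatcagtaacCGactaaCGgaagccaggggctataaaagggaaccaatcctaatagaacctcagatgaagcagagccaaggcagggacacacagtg
Zscan4f: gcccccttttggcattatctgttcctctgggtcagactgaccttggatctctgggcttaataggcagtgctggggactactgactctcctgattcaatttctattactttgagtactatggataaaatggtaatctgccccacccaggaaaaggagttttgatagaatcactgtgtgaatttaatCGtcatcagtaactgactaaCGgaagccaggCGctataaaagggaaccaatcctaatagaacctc
Dub1: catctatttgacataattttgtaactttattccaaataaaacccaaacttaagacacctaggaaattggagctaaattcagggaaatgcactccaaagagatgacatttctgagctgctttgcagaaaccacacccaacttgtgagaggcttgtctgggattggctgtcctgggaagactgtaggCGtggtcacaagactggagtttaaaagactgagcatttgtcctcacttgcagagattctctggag
Tdpoz4: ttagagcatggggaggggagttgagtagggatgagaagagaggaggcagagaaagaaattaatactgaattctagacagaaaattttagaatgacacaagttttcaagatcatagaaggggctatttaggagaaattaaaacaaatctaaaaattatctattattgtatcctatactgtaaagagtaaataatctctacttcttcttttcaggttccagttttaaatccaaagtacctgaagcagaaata

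The 4 Zscan4 stretches were almost identical. Aligned without gaps at their best offset, Zscan4c and Zscan4f were identical at 226 of 227 shared bases, and Zscan4b and Zscan4f, a less alike pair, at 237 of 250. Dub1 showed no such likeness, with at most 33.3% identical bases against any Zscan4 copy. All 6 stretches were poor in CG, with 3 each in Zscan4c, Zscan4d and Zscan4f, 1 each in Zscan4b and Dub1, and 0 in Tdpoz4. The median over the 27025 genes of the table was 6, and 38.1% of them had 3 or fewer. Of 39 further two-cell-like genes described below, 26 had an entry, with a median of 1 CG and 21 genes at 3 or fewer. The word CACGTG, the E-box bound by Mga with Max among other factors, was on neither strand of any of the 6 stretches, and 6.05% of all promoters of this length hold it. GCGGGA, the core of E2F sites, was also in none of them, against 16.9% of all promoters. Both words hold a CG, so stretches poor in CG can seldom hold them. The shares of all promoters are not matched for CG, and the 4 Zscan4 stretches are not separate observations. TATAAA, looked for after the sequences had been seen, was in the 4 Zscan4 stretches and in 12.97% of all promoters. It began 31 bases before the annotated start in Zscan4b and Zscan4f, 54 in Zscan4c and 65 in Zscan4d. These matches describe the letters of the windows only.

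Library totals ranged from 12585621 to 23378930 counts, and the shallowest library of each set 1 group was replicate 3. Rnf2 stood at 177 to 192 CPM (the count relative to the library total, here with totals scaled by TMM over the 6 libraries of a set) in wild type and at 85.7 to 98.0 CPM in I53A, although a point mutation need not alter the RNA level and these values do not check the label. The libraries labelled QKO did not show less RNA of the genes that the label names. Hist1h1b had 2 to 9 counts per wild type library of set 2 and 53 to 72 in those labelled QKO, Hist1h1c 143 to 205 and 129 to 202, Hist1h1d 3 to 14 and 5 to 15, and Hist1h1e 0 to 6 and 3 to 12. Hist1h1b, Hist1h1d and Hist1h1e had at most 14 counts per wild type library, too few to show a loss, and a knockout need not lower the RNA level. The transcripts therefore do not check the label, and the group is called by its label throughout. Of 10 embryonic stem cell markers all were tested in both sets. In I53A Nanog (fell by 0.36 on the log2 scale), Sox2 (fell by 0.67), Zfp42 (fell by 0.50) and Esrrb (fell by 0.60) were lower and Tdgf1 (0.99) was higher, while Pou5f1 differed by -0.04, adjusted p = 0.83 by edgeR. In the libraries labelled QKO 6 of the 10 were higher and 3 lower. Over all genes tested 18.1% were higher and 17.4% lower in I53A, and 28.7% and 29.0% in set 2.

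All 7 genes were far more abundant in the Ring1b I53A libraries of set 1. The summed Zscan4 counts rose by a log2 fold change of 3.53 ± 0.26 (SE, 11.5-fold), and the single genes rose between 9.17-fold for Tdpoz4 and 17.4-fold for Dub1. The call rests on edgeR's quasi-likelihood test over 15536 genes with Benjamini-Hochberg adjustment, under which 7 of 7 genes were higher at an adjusted p under 0.05. The background was broad, since 18.1% of the genes tested were called higher and 17.4% lower, 35.5% in all. Only 1.53% of the genes tested were both called and at least 8-fold higher, and all 7 members were among them. The 8-fold cut was not a planned threshold. The 7 genes were chosen with earlier results of these data known, and the Zscan4 copies among them are near-identical. These counts are therefore a description.

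The summed Zscan4 level was 62.6, 64.2 and 37.8 CPM in wild type replicates 1 to 3, and 727, 697 and 480 CPM in I53A replicates 1 to 3. The groups were far apart, and replicate 3 was the lowest of both (edgeR adjusted p = 0.0001). The deposited names of the replicate 3 alignments follow another style than those of replicates 1 and 2. Taken by replicate number, the ratio of I53A to wild type was 11.6, 10.9 and 12.7, and with replicates 1 and 2 alone the log2 fold change was 3.49. So the lower level of replicate 3 was shared by wild type and mutant, while the ratio between them was similar. In bulk RNA, more cells in the state and more RNA per such cell cannot be told apart.

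Zscan4c was the copy with the highest CPM in I53A, at 310, 257 and 170 CPM against 22.4, 23.4 and 15.5 CPM in wild type. Zscan4d followed with 195, 211 and 173 CPM against 20.8, 20.7 and 13.9 CPM. These 2 copies carried most of the Zscan4 counts, Zscan4c 37.7% ± 2.84 (SD, n = 3) in wild type and 38.3% ± 3.82 in I53A, and Zscan4d 34.1% ± 2.36 and 31.0% ± 4.64. The share of Zscan4c differed between the genotypes by less than the spread between libraries. That of Zscan4d was lower in I53A at each replicate number (26.8% against 33.2%, 30.2% against 32.3% and 36.0% against 36.8%), by a mean gap larger than the SD of wild type but not that of I53A, and no test of it was made.

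Zscan4f stood at 94.8, 102 and 50.3 CPM in I53A and at 6.17, 7.36 and 3.51 CPM in wild type, and its log2 fold change of 3.84 ± 0.36 was the highest estimate among the copies. Zscan4e stood at 86.5, 88.9 and 59.6 CPM against 9.48, 9.48 and 2.82 CPM, a log2 fold change of 3.40 ± 0.41. Zscan4b was the least abundant copy, at 40.6, 38.4 and 27.1 CPM against 3.70, 3.29 and 2.06 CPM, a log2 fold change of 3.53 ± 0.24. The ranges of the 5 estimates plus or minus their SE overlap, from 3.38 ± 0.16 for Zscan4d to that of Zscan4f. The copies were counted in the same libraries, so this overlap does not test whether they differ. With the replicate number as a block, Zscan4d had 3.38 ± 0.07 and Zscan4f 3.86 ± 0.08. No test between copies was made. In every copy the lowest I53A library was above the highest wild type library, as it was for 24.7% of the genes tested. The plot of CPM by library shows the same gap for each.

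**Figure D1:**
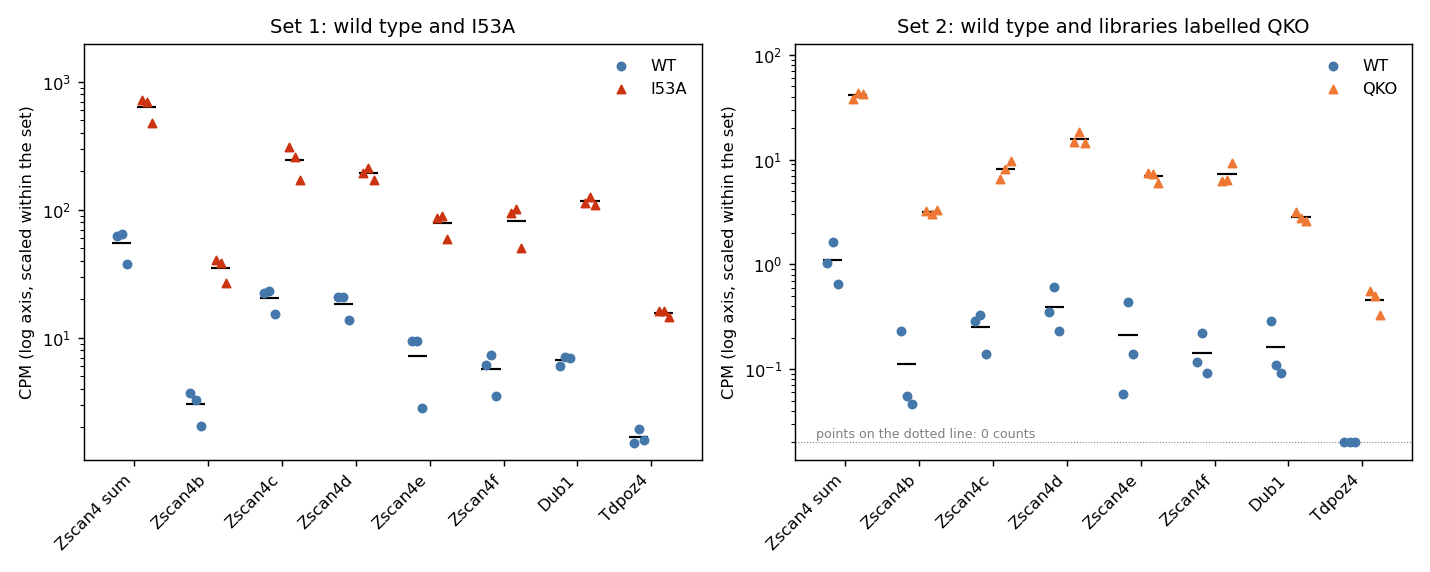
CPM on a log axis for the summed Zscan4 counts and the 7 genes in set 1 (left, wild type and I53A) and set 2 (right, wild type and libraries labelled QKO), each point 1 library and each bar the mean of 3. Every mutant library lies above every wild type library of its set, as in 24.7% of the genes tested in set 1 and 30.6% in set 2, and in set 2 the wild type values are near 0, with Tdpoz4 at 0 counts.

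Dub1, whose product removes ubiquitin from proteins, was at 6.06, 7.08 and 6.95 CPM in wild type and 114, 126 and 109 CPM in I53A. Its log2 fold change of 4.12 ± 0.11 (edgeR adjusted p = 2.9e-07) had the smallest error of the 7, and its replicate 3 was not lower in wild type. Tdpoz4 was the rarest, at 1.51, 1.95 and 1.603 CPM in wild type and 16.2, 16.1 and 14.5 CPM in I53A. It rose by a log2 fold change of 3.20 ± 0.16 (edgeR adjusted p = 7.7e-06), from 83 counts over the 3 wild type libraries to 762.

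Corrected for exon length, the order of levels in I53A was Zscan4c (107 ± 30.7 CPM per kb, SD, n = 3), Zscan4d (96.8 ± 9.60), Zscan4e (44.9 ± 9.35), Dub1 (43.9 ± 3.37), Zscan4f (33.9 ± 11.5), Zscan4b (20.3 ± 4.17) and Tdpoz4 (14.0 ± 0.834). Taken library by library, Zscan4e and Dub1 were above Zscan4f in all 3 I53A libraries, while Zscan4c was above Zscan4d in replicates 1 and 2 but not in replicate 3, and so was Zscan4e above Dub1. No test of these orders was made. In wild type of set 1 the order began with Zscan4d (9.28 ± 2.00 CPM per kb) and Zscan4c (8.88 ± 1.87), with Zscan4d slightly above Zscan4c in each library, and ended with Zscan4b (1.73 ± 0.489) and Tdpoz4 (1.52 ± 0.207).

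These genes were also higher in the libraries labelled QKO, from a wild type level close to none. The summed Zscan4 counts were 18, 30 and 14 in the wild type libraries of set 2 and 892, 698 and 913 in the libraries labelled QKO, or 1.04, 1.65 and 0.649 CPM against 38.1, 43.3 and 42.7 CPM. The mutant libraries lie close together and far above the wild type ones. The log2 fold change was 5.24 ± 0.14 (37.7-fold, edgeR adjusted p = 2.4e-32), and the ratio of CPM had an exact 95% interval from 29.4 to 49.4, which covers counting error only. Of the 7 genes, 6 passed the filter on low counts and all 6 were called higher, where 28.7% of 15439 genes tested were called higher and 29.0% lower, 57.7% in all, and 1.31% were called and at least 8-fold higher. With 1 to 11 counts per wild type library, these 6 passed the filter through the libraries in which they are high, so their count of 6 of 6 is a description.

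Zscan4d was the most abundant copy in the libraries labelled QKO, with 342, 297 and 307 counts (14.6, 18.4 and 14.4 CPM) against 6, 11 and 5 counts in wild type. Zscan4c had 153, 132 and 206 counts against 5, 6 and 3. Zscan4f had 147, 102 and 200 counts against 2, 4 and 2. Their log2 fold changes were 5.32 ± 0.21, 5.01 ± 0.28 and 5.65 ± 0.32, with wild type values that rest on a handful of fragments.

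Zscan4e had 174, 118 and 129 counts in the libraries labelled QKO and 1, 8 and 3 in wild type, a log2 fold change of 5.00 ± 0.31. Zscan4b had 76, 49 and 71 counts against 4, 1 and 1, a log2 fold change of 4.85 ± 0.42. Dub1 had 74, 45 and 56 counts against 5, 2 and 2, a log2 fold change of 4.12 ± 0.40. Single wild type libraries move these 3 estimates: without wild type replicate 2 that of Zscan4e was 5.98, and without wild type replicate 1 that of Zscan4b was 5.82 and that of Dub1 4.74. In each of these genes the lowest mutant library was above the highest wild type library, as it was for 30.6% of the genes tested.

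Tdpoz4 was listed with 0 counts in all 3 wild type libraries of set 2 and with 13, 8 and 7 in those labelled QKO. It was too low for the test. Against a floor of 3 counts over the wild type group it was at least 8.73-fold higher. Without the filter it was called higher (edgeR adjusted p = 2.2e-05).

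Of the Zscan4 counts in the libraries labelled QKO, 38.2% ± 4.46 (SD, n = 3) were assigned to Zscan4d, 19.5% ± 2.76 to Zscan4c, 17.7% ± 3.79 to Zscan4f, 16.8% ± 2.69 to Zscan4e and 7.77% ± 0.750 to Zscan4b. Set 2 wild type libraries had too few Zscan4 counts for shares to be read. Per the file headers the alignments of set 1 carry the word unique in their names and those of set 2 do not, so shares and levels were not compared between the sets.

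**Figure D2:**
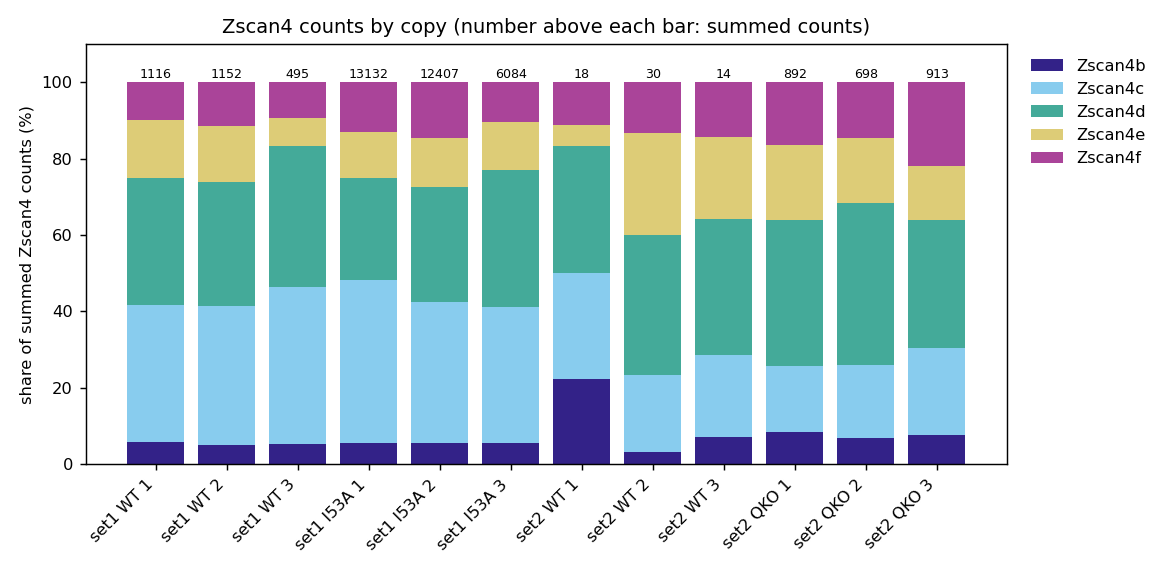
Share in percent of the summed Zscan4 counts assigned to each of the 5 copies, 1 bar per library, with the summed count above each bar. Zscan4c and Zscan4d hold most counts in set 1, and the bars of set 2 wild type rest on 14 to 30 counts.

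Whether the rise differed in size between the sets was asked with an interaction term in 1 fit of the 12 libraries. The summed Zscan4 effect of I53A was smaller than that of the libraries labelled QKO, by -1.69 ± 0.47 on the log2 scale (edgeR adjusted p = 0.020). In the fit with the single copies, 18.1% of 16501 genes had a called difference in this direction. The call on the sum was lost without the low-count filter (adjusted p = 0.051 by edgeR) and without wild type replicate 3 of set 2, which holds 14 Zscan4 counts (-1.40, adjusted p = 0.060 by edgeR). Genotype, wild type level and alignment differ together between the sets and cannot be told apart.

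Among the single genes 1 of 7 had a called difference, Zscan4d, at -1.93 ± 0.40 (edgeR adjusted p = 0.0022). With the replicate number as a block 4 of the 7 were called. Dub1 had no called difference, at 0.02 ± 0.21 on the log2 scale with a normal 95% interval from -0.39 to 0.42. Tdpoz4 had -2.92 ± 0.98 (adjusted p = 0.058 by edgeR), with a wild type group at 0 in set 2, so that this estimate depends on the fit's prior count.

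The relatives of the 7 genes were higher in I53A as well. Zscan4-ps2, a Zscan4 pseudogene, was at 7.24, 10.1 and 4.96 CPM in wild type and 44.2, 76.8 and 50.9 CPM in I53A (log2 fold change 2.93 ± 0.30). The other 4 annotated deubiquitinase genes of the Dub and Usp17l family were all called higher, Dub1a by 3.81 ± 0.12, Dub3 by 3.64 ± 0.11, Dub2a by 3.40 ± 0.22 and Usp17l5 by 3.33 ± 0.10 on the log2 scale. Tdpoz3, the only other Tdpoz gene with enough counts, rose by 3.38 ± 0.39, and its relative Tdpoz5 had 0 counts in all 12 libraries. These relatives share sequence with the 7 genes, and counts may have been split between them.

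In the libraries labelled QKO these relatives were high from a wild type level near 0. Zscan4-ps2 went from 15 counts over the 3 wild type libraries to 592 (log2 fold change 5.18 ± 0.25), Dub1a from 8 to 211, Dub3 from 11 to 384, Dub2a from 2 to 62 and Usp17l5 from 4 to 125. All 5 were called higher by edgeR, but passed the filter through the libraries labelled QKO, so that this is a description. Tdpoz3 had 1 count in wild type and 28 in the libraries labelled QKO, too few for the test.

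Of 39 annotated two-cell-like genes beyond the 7, 3 had no count in any library and 33 were tested in set 1. In I53A 29 of the 33 were higher and 2 lower, with a median log2 fold change of 2.94. Over all genes tested the median was 0.00, with 18.1% called higher and 17.4% lower. In wild type alone 26 of the 33 reached the filter's level, 22 of them called higher, and the others passed it through I53A. Gm8300 rose by 3.30 ± 0.12, Gm8994 by 3.18 ± 0.12, BB287469 by 3.26 ± 0.15 and Gm2016 by 2.77 ± 0.12. Gm8300 overlaps BB287469, and Gm2016 overlaps Gm2075, on the same strand, so their counts are uncertain. The 2 lower genes were Eif1a, a translation initiation factor gene (-0.33 ± 0.09), and Pif1, a DNA helicase gene (-0.45 ± 0.08). Cml2 (1.17 ± 0.42, adjusted p = 0.059 by edgeR) and Trim43c (0.35 ± 0.33, adjusted p = 0.46) were not called. Cml2 was called with the replicate number as a block (adjusted p = 0.027 by edgeR) and with DESeq2 (adjusted p = 0.024). These 4 were named after their values were seen.

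In set 2 25 of the 39 were tested, 19 higher and 1 lower, with a median log2 fold change of 4.26. All genes tested had a median of 0.00, with 28.7% called higher and 29.0% lower. The 19 had 0 to 21 counts over the 3 wild type libraries and passed the filter through the libraries labelled QKO, so the count and the median are descriptions. Gm2016 went from 21 counts over the wild type libraries to 867 (log2 fold change 5.24 ± 0.22) and Gm8300 from 16 to 622 (5.16 ± 0.25). The lower gene was Ccdc36 (-0.54 ± 0.16), named after its value was seen. Gm4027, with 0 wild type counts and 80 in the libraries labelled QKO, was at least 25.0-fold higher. The fold changes of the list in both sets are shown gene by gene, and most genes of the list lie with the Zscan4 copies.

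**Figure D3:**
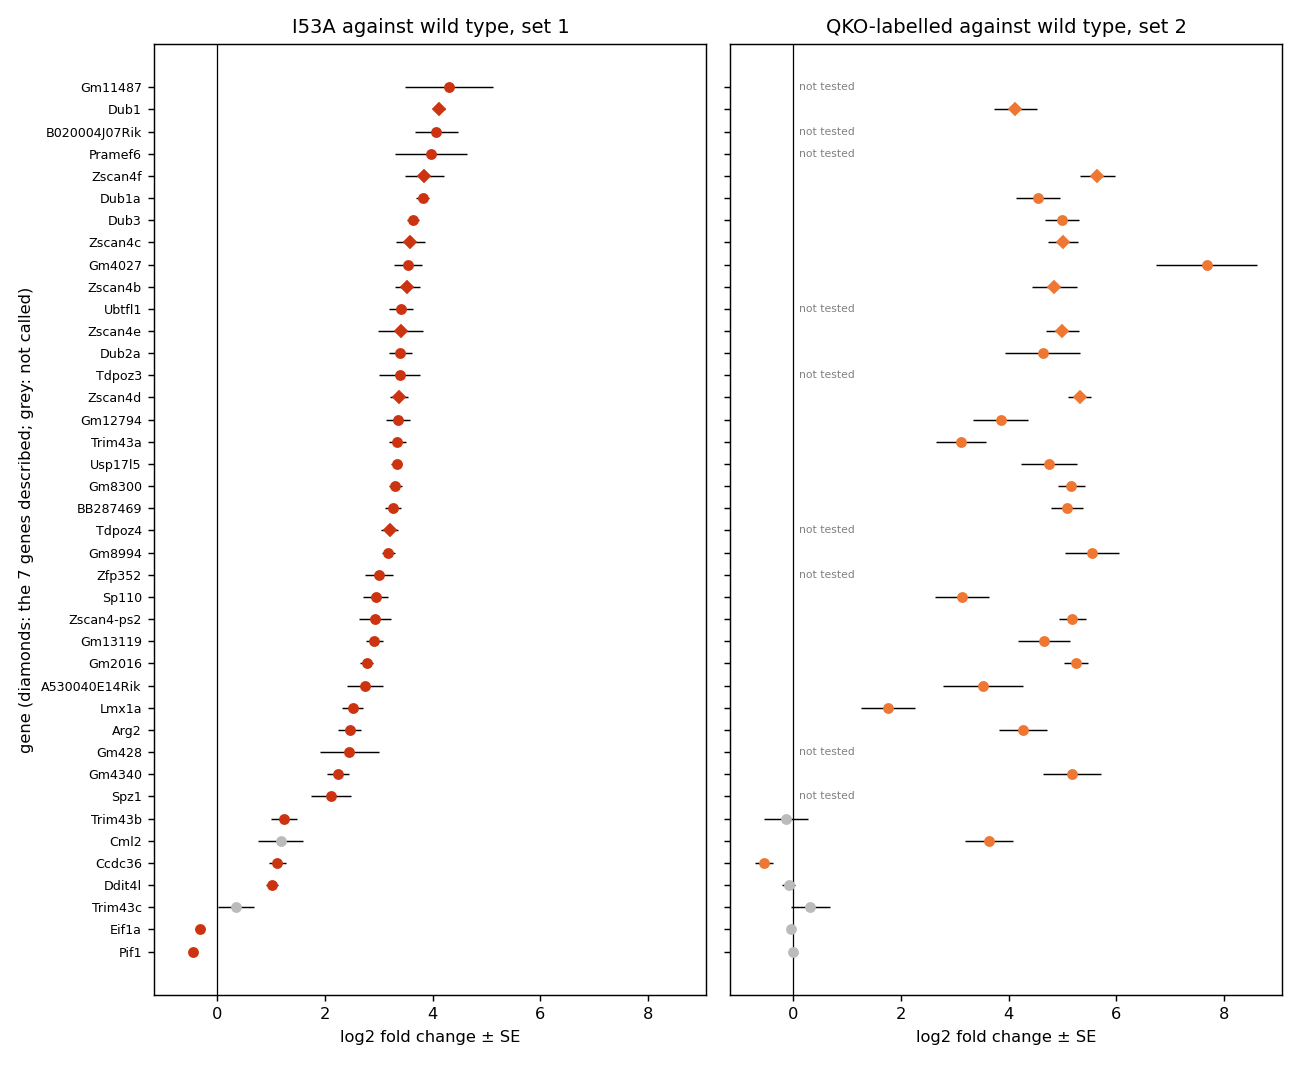
Log2 fold change ± SE of the tested two-cell-like genes, 1 row per gene, for I53A against wild type in set 1 (left) and libraries labelled QKO against wild type in set 2 (right). Diamonds are the 7 genes, grey points were not called, and 36 of the 40 genes lie above 0 and are called in the left panel. Of all genes tested in set 1, 18.1% were called higher.

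The genes whose pattern over the 12 libraries was closest to the summed Zscan4 counts were found by the root mean square difference in log2 CPM, after subtracting the wild type mean of each set. Among 16496 genes the 8 closest were Gm8300 (0.29), Gm5662 (0.34), BB287469 (0.47), Dub3 (0.48), Gm2016 (0.49), Zscan4-ps2 (0.52), Gm2035 (0.56) and Col1a2 (0.57). Of these, 5 are on the two-cell-like list and Gm8300, Gm5662, BB287469, Gm2016 and Gm2035 lie on chromosome 12. Dub1 ranked 22 and Tdpoz4 67. Col1a2, a collagen gene known from fibroblasts, is on no two-cell-like list, and its wild type libraries held 15 counts in set 1 and 9 in set 2, against 237 in I53A and 283 in the libraries labelled QKO. The measure is a description over 12 libraries, and most points share the contrast between mutant and wild type.

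**Figure D4:**
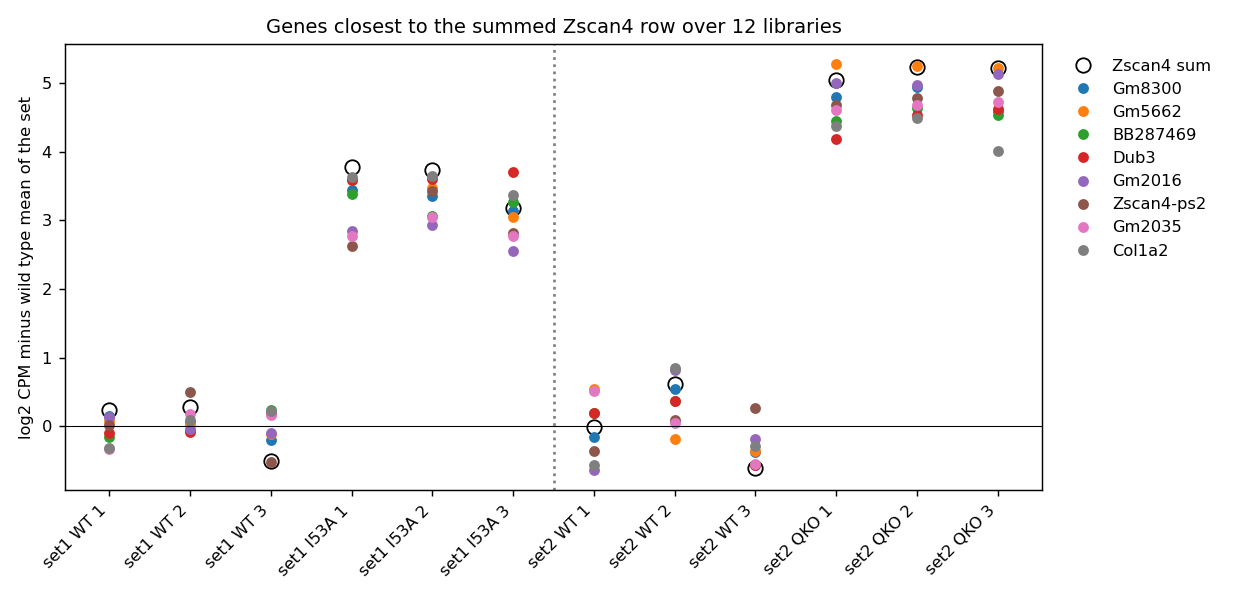
Log2 CPM minus the wild type mean of the set, 1 column per library, for the summed Zscan4 counts (open circles) and the 8 closest genes. Values scatter around 0 in wild type, and the summed Zscan4 row averages 3.56 in I53A and 5.16 in the libraries labelled QKO.

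Of the known activators of the state, Dux had 10, 10 and 11 counts in the wild type libraries of set 1 and 36, 35 and 20 in I53A, a log2 fold change of 1.52 ± 0.32 (edgeR adjusted p = 0.0076). In the libraries labelled QKO it had 10, 10 and 11 counts, against 0, 1 and 0 in their wild type libraries, a ratio of 29.0 with an exact 95% interval from 4.8 to 1182 for counting error, too low for the test. Dux is a gene of a repeated array, so its count is uncertain.

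Dppa2, which acts upstream of Dux, was at 88.6, 85.7 and 62.1 CPM in wild type and 166, 185 and 101.3 CPM in I53A (log2 fold change 0.94 ± 0.24, edgeR adjusted p = 0.021). In set 2 it rose by 0.82 ± 0.05. Its partner Dppa4 had -0.48 ± 0.20 in I53A (not called, adjusted p = 0.11 by edgeR) and fell by 0.28 ± 0.05 in the libraries labelled QKO. Obox6, a homeobox gene of the early embryo, rose by 1.10 ± 0.31 in I53A. Tbx3, a T-box factor, had 0.46 ± 0.27 (not called) in I53A and rose by 0.74 ± 0.04 in set 2, where Gata2 fell by 0.85 ± 0.22. In all, 3 of 6 tested activators were higher and 0 lower in I53A. In set 2, 2 of 4 were higher and 2 lower. Over all genes tested 18.1% were higher and 17.4% lower in I53A, and 28.7% and 29.0% in set 2. In wild type of set 1 alone 5 of the 6 activators reached the filter's level, 2 of them called higher. The other passed it only with the I53A libraries. In set 2 all 4 reached it in wild type.

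Of 22 known repressors tested in each set, 2 were higher and 7 lower in I53A with a median of -0.08, and 9 were higher and 8 lower in the libraries labelled QKO with a median of -0.01. Over all genes tested these shares were 18.1% higher and 17.4% lower in I53A, and 28.7% and 29.0% in set 2. Within PRC1.6, the E2f6 transcripts rose from 20.1 to 22.3 CPM in wild type to 44.7 to 46.1 CPM in I53A (log2 fold change 1.08 ± 0.09). Mga, the large subunit that binds DNA with Max, fell by 0.79 ± 0.14 on the log2 scale in I53A. In the libraries labelled QKO E2f6 fell by 0.50 ± 0.07, and the difference between the sets was 1.595 ± 0.10 (edgeR adjusted p = 4.3e-08).

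Chaf1b, a subunit of the chromatin assembly factor, fell in both comparisons, by 0.60 ± 0.07 in I53A and by 0.49 ± 0.05 in the libraries labelled QKO on the log2 scale. Uhrf1, which guides maintenance of DNA methylation, fell by 0.50 ± 0.08 and 0.47 ± 0.04. Trim28, the corepressor of many retroelements, had 0.19 ± 0.14 in I53A (not called) and rose by 0.71 ± 0.04 in set 2. Smchd1, a chromatin protein of silent loci, fell by 0.41 ± 0.07 and 0.73 ± 0.05. The plot of regulators shows these fold changes on 1 scale.

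**Figure D5:**
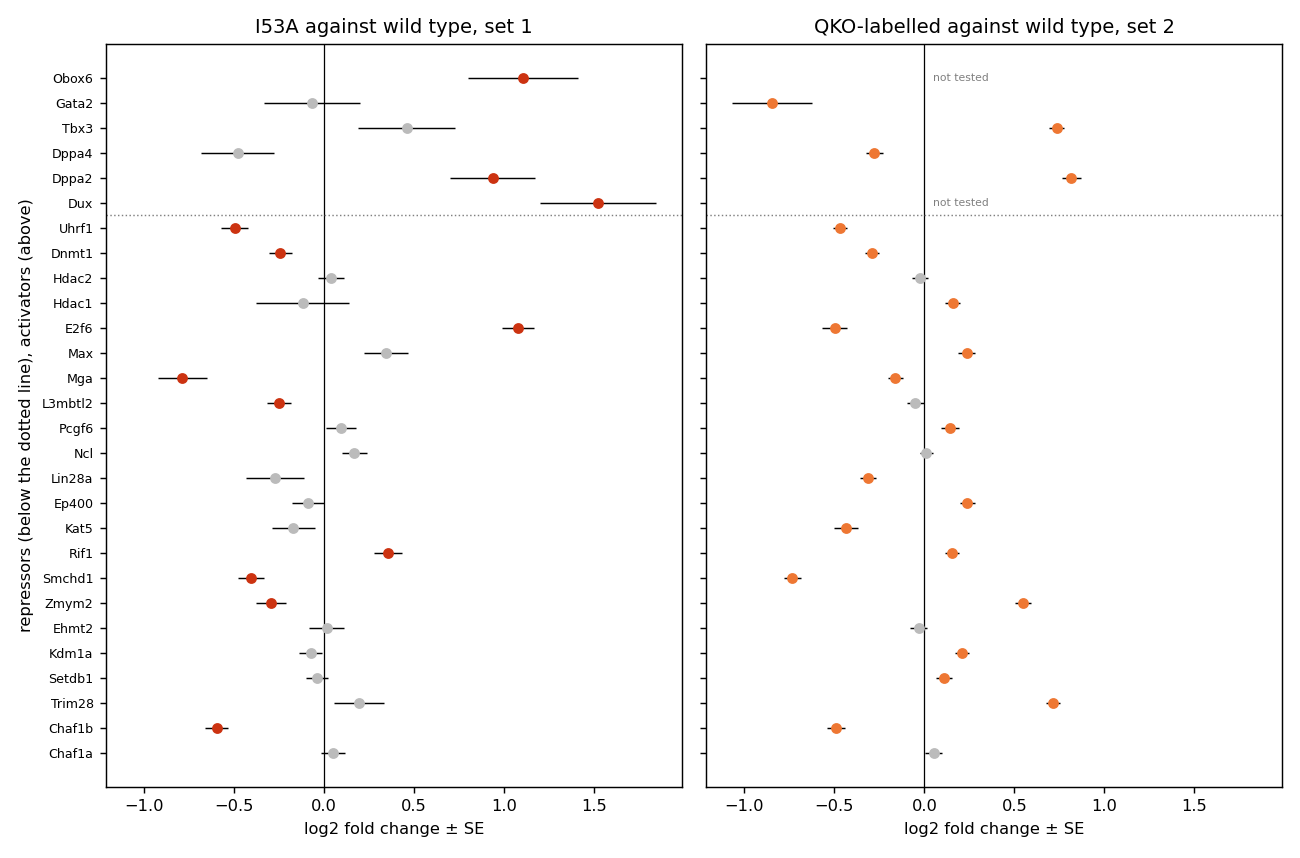
Log2 fold change ± SE of known repressors (below the dotted line) and activators (above it) of the two-cell-like state in I53A against wild type (left) and libraries labelled QKO against wild type (right), with genes not called in grey. Repressors lie on both sides of 0, and Dux is the highest point in the left panel at 1.52.

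Markers of other cells were read beside these values. Of 18 tested primitive endoderm markers, 16 were higher and 1, Hnf4a (-1.35 ± 0.15), lower in I53A, where 18.1% of all genes tested were higher, and their summed level was 1009 to 1099 CPM in wild type and 4485 to 4710 CPM in I53A. In wild type alone 14 of the 18 reached the filter's level, 12 of them called higher. The others passed it only with the I53A libraries. Dab2 (5.32 ± 0.09), Col4a2 (4.61 ± 0.09), Lama1 (3.39 ± 0.07) and Col4a1 (4.30 ± 0.10) rose on the log2 scale. In set 2, where the Zscan4 sum rose too, the summed marker level was 873 to 934 CPM in wild type and 867 to 901 CPM in the libraries labelled QKO. Lamc1 made up most of it, at 600 to 650 CPM in wild type and 500 to 523 CPM in the libraries labelled QKO. The sum therefore mainly follows this gene and says little of the other markers. Of the single markers in set 2, 9 of 16 tested were higher, Sparc (0.71 ± 0.05) and Hnf4a (2.04 ± 0.15) among them, and 1 lower. Over all genes tested 28.7% were higher. In wild type alone 14 of the 16 reached the filter's level, 7 of them called higher. The others passed it only with the libraries labelled QKO.

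Of the fibroblast feeder markers 5 of 8 tested were higher in I53A and 5 of 7 in the libraries labelled QKO. Over all genes tested 18.1% and 28.7% were higher. In wild type of set 1 alone 6 of the 8 reached the filter's level, 3 of them called higher. In wild type of set 2 alone 6 of the 7 reached it, 4 of them called higher. The others passed it only with the mutant libraries. The summed level of the feeder markers was 93.3 to 132 CPM in wild type and 121 to 141 CPM in I53A, groups that overlap. In set 2 it was 129 to 136 CPM in wild type and 251 to 260 CPM in the libraries labelled QKO. Over 3 libraries each, the collagen gene Col1a2 went from 15 to 237 counts in set 1 and from 9 to 283 in set 2, and Col1a1 from 116 to 277 and from 86 to 256. The matrix gene Bgn rose by 3.79 ± 0.28 on the log2 scale in I53A, and had 13 and 19 counts in set 2, too few for the test. Col3a1 had 3 and 14 counts in set 1 and 0 and 4 in set 2, and Postn, Fap, Lum, Dcn and Prrx1 had between 0 and 3 in each group. Bgn, Col3a1 and these 5 were named after their values were seen. The part of these cell markers in the Zscan4 values was not tested.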

How the data were processed

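RNA-seq counts of 12 libraries were used. The authors deposited raw counts per gene for each library. Per the file headers, these came from featureCounts 1.6.3, counting read pairs per gene name of GENCODE vM 1 on mm9, with no option set for strand or for fragments with several alignments. Per the file headers, set 1 alignments carry TopHat and unique in their names and set 2 alignments do not. The submitters' processing notes name HISAT2, so the aligner of each set is not settled. Per-sample columns left unused number 0, and the chromatin assays were not analysed here.

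Counts were tested with edgeR 4.0.16 in R 4.3.3 (TMM, filterByExpr with a minimum count of 10, robust quasi-likelihood, 2-sided), with the 6 libraries of a set in each fit and all 12 for the difference of effects. P-values were Benjamini-Hochberg adjusted over all genes tested, with a threshold of 0.05. Each SE of a log2 fold change is its absolute value divided by the square root of the F statistic of the quasi-likelihood test. The summed Zscan4 count was tested in a separate fit, in which it replaced the 5 Zscan4 rows. Shares over all genes come from the fit with the single rows. DESeq2 1.42.0, other scalings and filters, and left-out libraries were alternatives. For the summed Zscan4 change DESeq2 gave an SE of 0.22 in I53A and 0.20 in the libraries labelled QKO, against 0.26 and 0.14 by edgeR. An exact permutation test of 3 against 3 libraries cannot go below p = 0.1. All replicate pairs differed by more than sampling noise (chi-square per degree of freedom from 2.19 to 27.3).

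In set 1 libraries with the same replicate number deviated together over genes (correlations 0.23, 0.26 and 0.49). Replicates 1 and 2 correlated as well across numbers (0.22 and 0.24), so the correlations set apart replicate 3 alone. The main fits hold no replicate term and are unpaired, and the replicate number entered as a block only as an alternative. With that block the summed Zscan4 change in I53A was 3.54 ± 0.05, against 3.53 ± 0.26 in the main fit. The deposited names of I53A replicates 1 and 2 carry each other's number, and the labels' numbers were used.

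The 7 genes and all lists were chosen with earlier results of these data known. Named genes are the 7, the 4 of each other list with the lowest adjusted p in I53A and the 2 lowest in the libraries labelled QKO, called genes of short lists, and the 8 genes closest to the summed Zscan4 row.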

Additional observations from a re-analysis of the deposited data

How the results depend on the processing

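The 7 genes and the summed Zscan4 counts stayed higher and past the threshold in I53A under every alternative run (log2 fold change of the sum 3.32 to 3.69), as did the 6 tested genes and the sum in the libraries labelled QKO (4.91 to 5.63). Tdpoz4 entered the test in set 2 under some of them, which gave 7 of 7 calls. The difference between the effects on the summed Zscan4 counts was less stable: it was -1.68 without the low-count filter (edgeR adjusted p = 0.051), and from -2.10 to -1.40 when 1 library was left out, with adjusted p from 0.0061 to 0.060 and the call lost without set 2 wild type replicate 3. Of the 7 genes 1 had a called difference by the test as reported, 3 with DESeq2, 4 with the replicate block, 5 with set 1 replicates 1 and 2 only, and 1 to 3 when 1 library was left out (3 without set 1 wild type replicate 3, 2 without set 2 wild type replicate 1 or QKO replicate 3). Over all genes, 5512 were called in I53A, 8798 with the replicate block and 8340 with replicates 1 and 2 only. The causes of these shifts were not tested. In set 2 the same replicate numbers did not pair the libraries (correlations 0.024, -0.004 and 0.042), and the replicate block left the summed Zscan4 change at 5.24 with 6 genes called. It changed no other call on the 7 genes. The wild type libraries of set 2 hold 62 Zscan4 counts in all, so each fold change there rests on few fragments. Assignment between near-identical copies was not tested, and exact intervals of count ratios cover counting error only.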

Other observations

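Some two-cell-like genes did not follow the Zscan4 copies, and those given here were picked after their values were seen. The 3 Trim43 genes, which are close relatives and may share reads, parted in both sets. Trim43a had a log2 fold change of 3.34 ± 0.16 in I53A and 3.11 ± 0.46 in the libraries labelled QKO, Trim43b 1.24 ± 0.23 and -0.14 ± 0.41, and Trim43c 0.35 ± 0.33 and 0.32 ± 0.35. By edgeR Trim43a was called in both, Trim43b in I53A and Trim43c in neither, and the difference between these genes was not tested. Exons of Trim43c overlap a gene on the minus strand, 9330159M07Rik, and no strand option was set in the counting.

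Ccdc36, known from meiotic recombination, was higher in I53A (log2 fold change 1.11 ± 0.16) and lower in the libraries labelled QKO (-0.54 ± 0.16). The difference of 1.66 ± 0.20 was called (edgeR adjusted p = 1.7e-05). Ddit4l differed in the same direction, with 1.014 ± 0.11 in I53A and -0.09 ± 0.12 in set 2 (difference 1.12 ± 0.15, edgeR adjusted p = 3.3e-05). Over the 33 two-cell-like genes with a tested difference, 3 had a called difference above 0 and 13 below 0, against 18.0% and 18.1% of all genes. A difference below 0 means a lower log2 fold change in I53A, whatever the sign of either change. The 19 genes of this list called higher in set 2 had 0 to 21 counts over the 3 wild type libraries.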
